A study of Homo sapiens with 12 samples.

Results

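FOXO1, CTNNB1 and CDKN1B are 3 genes reported as post-transcriptional targets of the RNA-binding protein QKI in growth control, and their contacts with QKI were read here from enhanced crosslinking and immunoprecipitation (eCLIP). They are 3 of 20882 gene names that carry a cluster in the endogenous QKI files. Their members are the clusters whose annotation lists the gene name. This gave 115 and 62 clusters for FOXO1 in the 2 endogenous libraries, 48 and 37 for CTNNB1, and 5 and 3 for CDKN1B, out of 384347 and 231844 in all. A cluster of a tagged library was counted for a gene if it shared a base and the strand with one of these. That gave 23 and 23 tagged wild type clusters for FOXO1, 25 and 27 for CTNNB1 and 2 and 2 for CDKN1B. In the mutant the counts were 16 and 25, 10 and 7, and 3 and 3.

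The labels name the cells HEK293xT and the protocol text HEK293T, a human embryonic kidney line. They were either left unmodified ("endogenous") or given 10 µg of a plasmid by transient transfection and kept for 72 hours. The plasmid encoded myc-QKI-5 ("wild type") or myc-QKI-5 carrying K120A and R124A, where numbers are residues ("mutant"). All were crosslinked at 254 nm with 400 mJ/cm2. Tagged protein was pulled down with anti-MYC and endogenous protein with anti-QKI, so antibody and transfection differ together between those groups and cannot be told apart. The labels name no change to the cells' own QKI gene, so transfected cells may hold their own QKI beside the tagged protein. Each group had 2 immunoprecipitation libraries, while the 6 input libraries are present solely as the denominator of the deposited folds. Nothing in the labels says that the libraries of a group were separate cultures, so the spread between them may be technical.

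QKI (Quaking) is a KH-domain protein of the STAR family that binds RNA at ACUAA-type elements. QKI-5 is its mainly nuclear isoform, known for control of splicing, while QKI proteins also act through 3′ UTRs on the stability and translation of mRNA. FOXO1 encodes a forkhead transcription factor that AKT kinase keeps out of the nucleus and that drives cell cycle arrest genes. CTNNB1 encodes β-catenin, the co-activator of Wnt target genes and a part of adherens junctions. CDKN1B encodes p27, an inhibitor of cyclin-dependent kinases that holds cells before S phase. No genome sequence of build hg19 was used here, so no binding sequence is given.

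For every cluster the files give the authors' log2 fold over size-matched input and the −log10 p of that enrichment. A cluster with at least 3 on each scale is called enriched. The tagged files list only clusters with a log2 fold above 0, so an unlisted tagged cluster is either absent or not above input. Library depth is unknown. For FOXO1 the files themselves show coarse values, since 113 of 115 and 62 of 62 endogenous clusters had a pair of fold and −log10 p that at least 100 clusters of the library shared. For CTNNB1 this held for 39 of 48 and 31 of 37. The series' design note speaks of human embryonic stem cells in cardiomyocyte differentiation, whereas the labels name HEK293xT. Of 8 pluripotency markers 1 (DNMT3B) had a cluster in both endogenous libraries, as did 3 of 8 cardiomyocyte markers (RYR2, ACTN2, TTN) and 3 of 8 markers chosen for the kidney line (PAX2, NEFM, KRT8). The remaining markers of each list did not. A reproducible endogenous peak was held by 1 cardiomyocyte marker (ACTN2), by 0 of the kidney line and by 0 of pluripotency, so these markers do not single out the labelled line.

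CTNNB1 was the gene of the 3 with the most enriched clusters, FOXO1 held 1 and CDKN1B held none. CTNNB1 had 5 and 4 enriched clusters in the endogenous libraries (4.5 ± 0.71, SD, n = 2). These are 10.4% (95% exact interval 3.47 to 22.7) and 10.8% (3.03 to 25.4) of its clusters, where 4.22% and 5.39% of all clusters were enriched. In tagged wild type it had 4 and 2 enriched clusters (3 ± 1.41, SD, n = 2), or 16% (4.54 to 36.1) and 7.41% (0.910 to 24.3), against 2.07% and 1.89% of all clusters. Those shares are not alike in scope. A tagged cluster counted for CTNNB1 had to touch an endogenous one, while all clusters of a library carried no such condition. Of all 41 and 51 wild type clusters within the gene's endogenous span, the same 4 and 2 were enriched. In the mutant CTNNB1 had 0 of 10 and 0 of 7, where 0.0405% and 0.304% of all clusters were enriched. The wild type and mutant counts did not overlap, and an exact two-sided permutation test gave p = 0.33, the smallest that 2 libraries against 2 allow. Only in the first wild type library did the lower bound of the CTNNB1 interval lie above the share of all clusters. The CTNNB1 share there was of clusters that touch an endogenous one. The wild type count fell to 0 at a log2 fold of at least 4.

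FOXO1 had 0 of 115 and 1 of 62 enriched endogenous clusters (0% and 1.61%, exact intervals 0 to 3.16 and 0.0408 to 8.66). The interval of the first library lay below the 4.22% of all clusters, and that of the second held the 5.39% of all clusters. No tagged cluster of FOXO1 was enriched, out of 23 in each wild type library and 16 and 25 in the mutant. CDKN1B had 0 enriched clusters in any of the 6 libraries, with at most 5 clusters in a library, so that intervals reach 52.2% or more and an absence of binding cannot be read from the count.

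**Figure D1:**
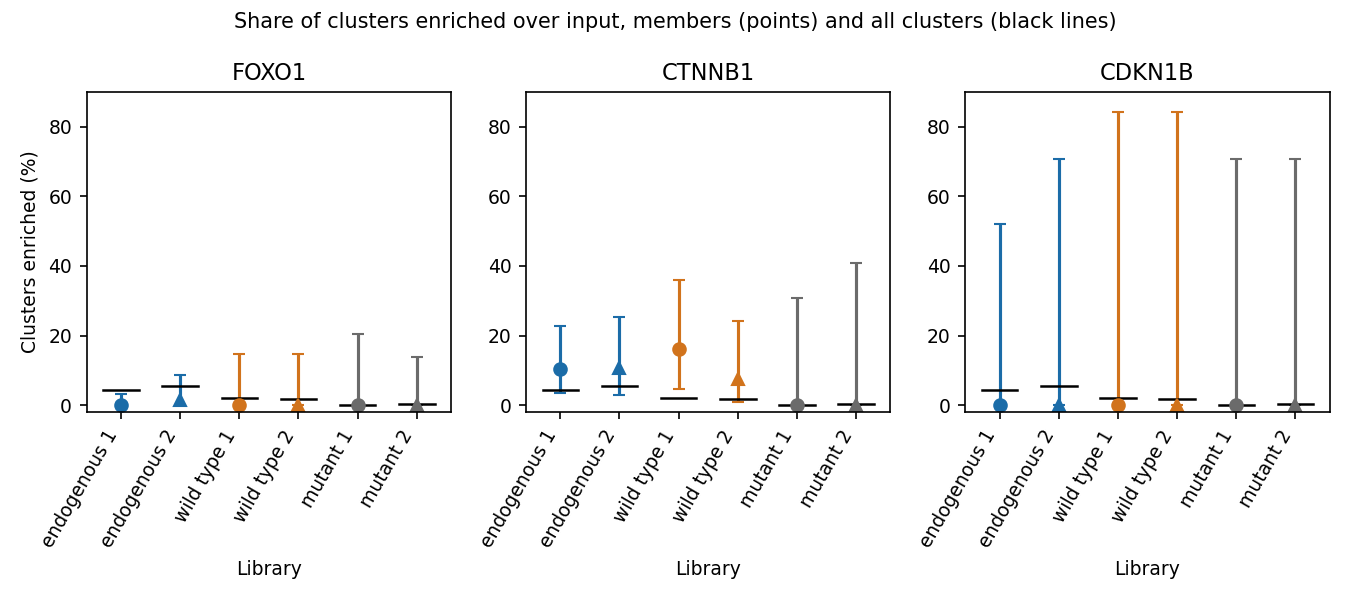
The percentage of clusters enriched over input (vertical axis) is plotted for each of the 6 libraries (horizontal axis), with a panel for each gene. Points are the gene's clusters with exact 95% binomial intervals, which cover counting error only, and black lines are all clusters of the library. Points of tagged libraries hold only clusters that touch an endogenous one, a condition the lines do not carry. CTNNB1 reached 10.4%, 10.8%, 16% and 7.41% in the endogenous and wild type libraries, while CDKN1B stayed at 0 with intervals reaching 52.2% or more.

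The authors' reproducible lists, which hold 1 set of peaks for each pair of libraries, followed the same order. In them CTNNB1 had 5 endogenous peaks, 2 wild type peaks and 0 mutant peaks. FOXO1 had 1 endogenous peak and no other, and CDKN1B had none. Of all gene names, 20.5% held an endogenous peak, 10.8% a wild type peak and 0.0958% a mutant peak. The share moved with the number of clusters in a gene. Among genes with at least 50 endogenous clusters, as FOXO1 and CTNNB1 have, it was 72.7% for endogenous and 41.0% for wild type, and among those with at most 10, as CDKN1B has, 2.63% and 1.40%. An endogenous peak in FOXO1 and CTNNB1 and none in CDKN1B is thus what most genes with such cluster numbers showed. Of the 5 endogenous CTNNB1 peaks 1 overlapped a wild type peak by at least 1 base, and none did by at least 50% of the shorter peak. The share over all endogenous peaks was not computed. That wild type peak ended at 41247692, and each wild type library had a further cluster there (41247691 to 41247800 and 41247693 to 41247778). These lay on the endogenous peak, with log2 folds of 2.52 and 2.82.

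The endogenous clusters of both libraries were merged into sites where they overlapped or adjoined, giving 142 sites in FOXO1, 59 in CTNNB1 and 5 in CDKN1B. The clusters spanned 109757 bases of FOXO1 (chromosome 13, 41129848 to 41239604, minus strand), 40766 bases of CTNNB1 (chromosome 3, 41241002 to 41281767, plus strand) and 4796 bases of CDKN1B (chromosome 12, 12870392 to 12875187, plus strand), in hg19. Per kilobase of that span the clusters of both libraries together numbered 1.61, 2.09 and 1.67. Clusters were therefore about as dense in CDKN1B as in FOXO1. Of the sites, 23 of 142 (16.2%), 21 of 59 (35.6%) and 3 of 5 were present in both endogenous libraries, against 21.5% of all 476866 sites. All CTNNB1 clusters also carried the annotation of a noncoding transcript on the same strand, lnc-CHL1-7, and all CDKN1B clusters that of lnc-CCDC77-6. No FOXO1 cluster did. The authors' annotation gave them to the coding gene, and reads of the overlapping transcripts cannot be told apart.

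**Figure D2:**
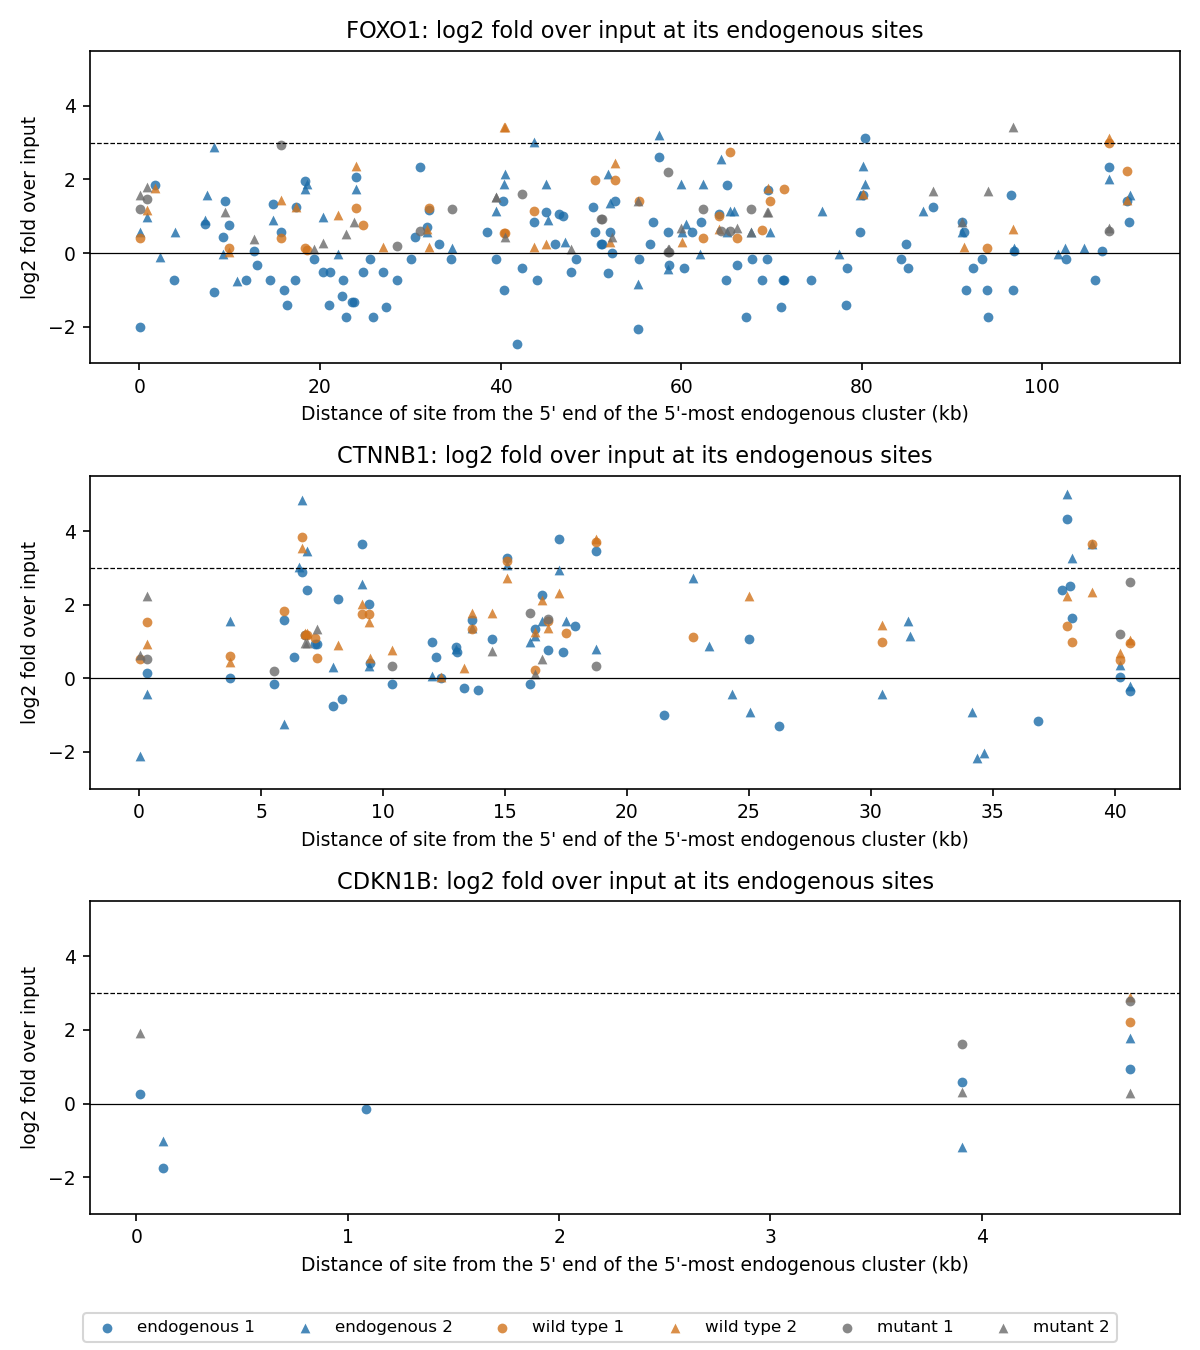
The log2 fold over input (vertical axis) is plotted for every endogenous site against its distance in kb from the 5′ end of the 5′-most endogenous cluster (horizontal axis), with a panel for each gene. Circles are replicate 1 and triangles replicate 2, and the dashed line marks a log2 fold of 3. CTNNB1 sites above 3 fall at 6.56 to 18.7 kb and at 38.1 to 39.1 kb. FOXO1 values run from −2.48 to 3.44 along the gene, most of them under the dashed line.

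In CTNNB1 the enriched signal was intronic. Of its 59 sites 42 were in distal introns, 6 in introns near a splice site, 6 in coding exons, 2 in the 5′ UTR, 2 in the 3′ UTR and 1 on a 3′ splice site. Distal introns held 4 of 39 and 3 of 24 enriched clusters in the endogenous libraries, where 4.21% and 5.52% of all distal intron clusters were enriched. Introns near a splice site held 1 of 4 and 1 of 5, where the shares of all such clusters were 6.08% and 7.24%. The 6 coding exon sites were each listed in 1 endogenous library and all lay below input, between −2.17 and −0.92. No tagged library listed a cluster at any of them.

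The strongest endogenous CTNNB1 site was in an intron near a splice site at 41278984 to 41279125. Its log2 fold was 4.32 and 5.01 in the endogenous libraries (mean 4.67 ± 0.48, SD, n = 2), with −log10 p of 18.3 and 18.0. In wild type it was 1.41 and 2.25 (1.83 ± 0.59), with −log10 p of 0.969 and 3.04, and no mutant library listed a cluster. Both endogenous values lay above both wild type values here. The site was picked as the strongest in endogenous, which favours that order, and the share of all sites with it was not computed.

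A group of 5 distal intron sites lay further 5′ in the gene, between 41247599 and 41259820. At 41247599 to 41247774 the log2 fold was 2.90 and 4.85 in the endogenous libraries and 3.84 and 3.56 in the wild type ones, and this was the place where reproducible peaks of both groups overlapped. At 41256033 to 41256149 the values were 3.28 and 3.09 for endogenous QKI and 3.20 and 2.73 for tagged wild type, a difference between groups smaller than the spread within wild type. Neither site was listed in the mutant libraries.

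The other 3 sites of this group differed more between libraries. At 41250079 to 41250212 the log2 fold was 3.65 and 2.56 for endogenous QKI and 1.73 and 2.02 for tagged wild type. The site at 41258165 to 41258281 had 3.78 and 2.96 in endogenous, and only wild type library 2 listed it, at 2.31. The wild type reproducible peak at 41259657 to 41259755 lay on a site with 3.70 and 3.79 in wild type but 3.47 and 0.79 in endogenous, and it was not in the endogenous list. In the mutant the last of these was listed in library 1 alone, at 0.34 with a −log10 p of 0, and the others were unlisted.

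A further site in an intron near a splice site, at 41280003 to 41280112, reached 3.66 and 2.33 in wild type with −log10 p of 9.08 and 4.84. It was listed in endogenous library 2 alone, at 3.65 with a −log10 p of 2.94, just under the threshold. Of the CTNNB1 clusters past the −log10 p threshold, the enriched endogenous cluster with the lowest fold had 3.09 and the next below the line 2.96. Across sites the 2 wild type libraries had Pearson's r of 0.88 over 17 shared CTNNB1 sites, and the 2 endogenous libraries 0.67 over 21, as descriptions of sites that share libraries. Endogenous and wild type means had r of 0.60 over the 13 sites listed in all 4 libraries.

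**Figure D3:**
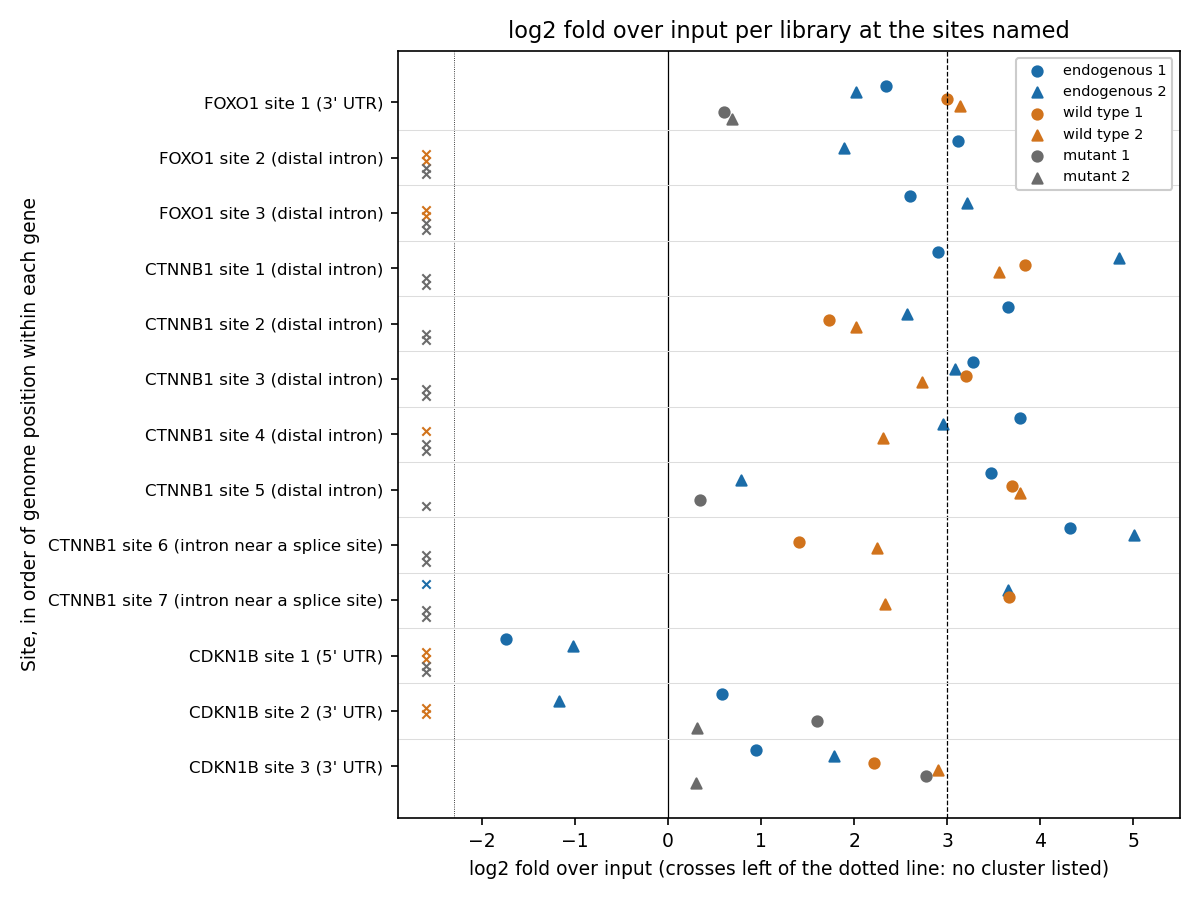
The log2 fold over input in each library (horizontal axis) is shown for the sites chosen by rule in each gene (vertical axis), with circles for replicate 1, triangles for replicate 2 and crosses left of the dotted line where no cluster was listed. At 6 of the 7 CTNNB1 sites no mutant library listed a cluster. Over all endogenous sites a mutant cluster was listed in at least 1 library at 17.4%, so most sites had none. At the FOXO1 3′ UTR site the mutant values of 0.61 and 0.69 lie below the 4 others.

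FOXO1 showed a different arrangement, with 134 of 142 sites in distal introns, 5 in the 3′ UTR, 2 in coding exons and 1 in an intron near a splice site. Its 1 reproducible peak was a distal intron peak in endogenous (41182074 to 41182166). The site around it had a log2 fold of 2.60 and 3.21 and a −log10 p of 3.85 and 3.96 in the endogenous libraries, and none of the 4 tagged libraries listed a cluster there. The next intronic site by endogenous fold, at 41159158 to 41159245, had 3.12 and 1.89 and was also unlisted in all 4. At the distal intron sites of FOXO1 the median log2 fold was −0.16 over 106 sites in endogenous library 1 and 0.98 over 49 in library 2, so the 2 libraries lay apart over the gene as a whole. Over all clusters the libraries differed in the same direction, with 59.6% and 85.6% above input, and for FOXO1 these counts were 52 of 115 and 51 of 62.

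The leading FOXO1 site in the tagged libraries was in the 3′ UTR, at 41132149 to 41132288. The log2 fold was 2.997 and 3.14 in wild type (3.07 ± 0.10, SD, n = 2), 2.34 and 2.02 for endogenous QKI (2.18 ± 0.23) and 0.61 and 0.69 for the mutant (0.65 ± 0.059). The order was wild type, endogenous, mutant, and no values of different groups overlapped. Calling this the leading tagged site rests on the same wild type values, so wild type on top is no separate result. Wild type lay above the mutant without overlap at 8.72% of all sites. The share with wild type above endogenous was not computed. The site was not called enriched in any library. Wild type library 1 was just under the fold threshold, with a −log10 p of 3.37, and wild type library 2 a −log10 p of 1.93. Of the other 4 FOXO1 3′ UTR sites, the one at 41130237 to 41130306 was listed in wild type at 2.22 and 1.44 and in endogenous library 1 at 1.43, and it was unlisted in the mutant. The other 3 were listed in 1 endogenous library each and in no tagged library.

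Wild type and mutant were compared region by region with limma over the 4 tagged libraries, in which 5481 regions had a cluster in all 4. At an adjusted p of at most 0.05, 0.657% of these regions stood higher in wild type and 0.0182% stood lower. The members had 5 such regions, 1 in FOXO1 and 4 in CTNNB1, and none passed. By limma, 1 of the 5 and 12.4% of all regions had an unadjusted p under 0.05. The FOXO1 3′ UTR region (41132122 to 41132324) was 2.42 higher on the log2 scale in wild type (SE 0.47, limma adjusted p = 0.0870). With each library centred the limma adjusted p was 0.0265, with a filter at a −log10 p of 3 it was 0.0393, and with a spread shared by all 6 libraries 0.0163. The region met that filter through wild type library 1 alone, in the group where it was high. The filtered value is thus no separate support. Over the other alternatives it lay between 0.0877 and 0.275, the highest without wild type library 2. The call thus turned on the setting, while the difference stayed between 2.35 and 2.69.

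Among the 4 CTNNB1 regions the differences on the log2 scale were 1.2 (SE 0.55, limma adjusted p = 0.424), 1.08 (SE 0.49, adjusted p = 0.425), 0.63 (SE 0.54, adjusted p = 0.656) and −0.16 (SE 0.65, adjusted p = 0.952). The first 3 were in distal introns and the last in an intron near a splice site at 41241258 to 41241409. In the last, mutant library 2 had a log2 fold of 2.24 with a −log10 p of 5.72, the highest −log10 p of a mutant cluster in the 3 genes, against 0.53 in mutant library 1 and 1.53 and 0.93 in wild type. The enriched CTNNB1 sites could not enter this test, because the mutant libraries listed no cluster or just 1 there.

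Over all endogenous sites of a gene, with unlisted tagged clusters set to 0, the mean log2 fold in CTNNB1 was 0.62 and 0.69 in wild type (0.65 ± 0.047, SD, n = 2) and 0.15 and 0.13 in the mutant (0.14 ± 0.013). The groups lay 0.52 apart, more than the libraries within either (exact two-sided permutation p = 0.33, the smallest possible). Over all 476866 sites the difference was 0.16. In CTNNB1, 13 of 59 sites had both wild type values above both mutant values, against 8.72% of all sites, and none had the reverse, against 2.27%. A wild type cluster was listed in at least 1 library at 33 of 59 sites and a mutant cluster at 15, where the shares of all sites were 28.0% and 17.4%. Both wild type libraries listed one at 17 of the 59 sites (28.8%) and both mutant libraries at 1 (1.69%), against 9.94% and 3.25% of all sites.

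In FOXO1 the mean was 0.18 and 0.21 in wild type and 0.12 and 0.17 in the mutant, a difference of 0.047 (exact two-sided permutation p = 0.33). Both wild type values lay above both mutant values, but the difference was smaller than the distance between the mutant libraries. At 10 of 142 sites wild type lay above the mutant without overlap and at 5 the reverse held. These are 7.04% and 3.52%, against 8.72% and 2.27% of all sites. Wild type and mutant clusters were each listed at 37 of the 142 sites (26.1%), where the shares of all sites were 28.0% and 17.4%. Both libraries listed one at 11 sites for wild type (7.75%) and at 6 for the mutant (4.23%), against 9.94% and 3.25% of all sites.

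**Figure D4:**
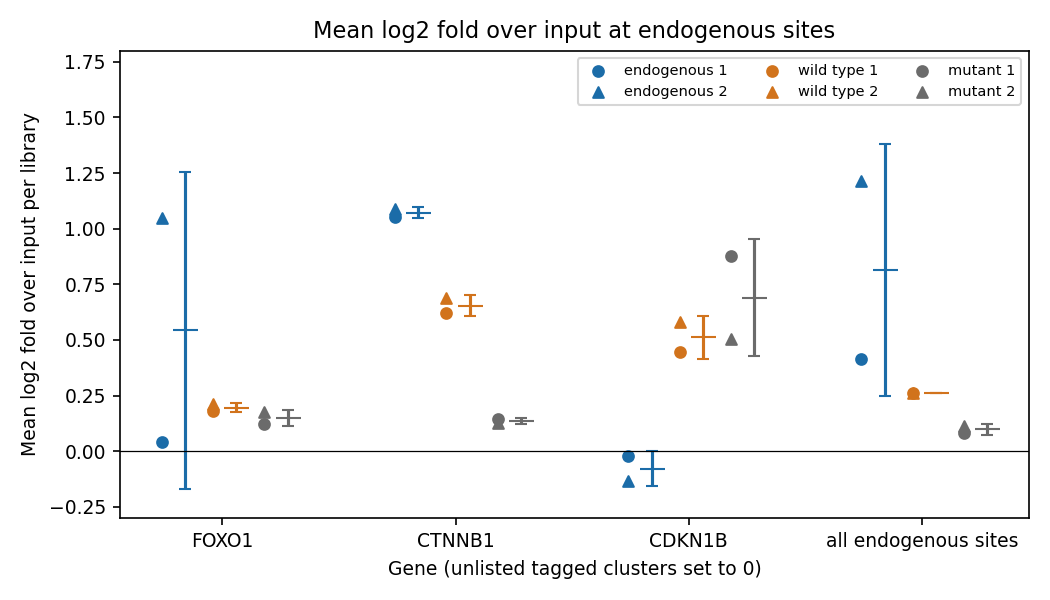
The mean log2 fold over input at endogenous sites (vertical axis) is shown for each gene and for all sites (horizontal axis). Points are libraries, and bars give the mean ± SD of the 2 libraries of a group. Tagged means run over all sites with unlisted clusters set to 0. Endogenous means run only over sites listed in that library, values below input included. Endogenous and tagged means therefore do not compare directly. CTNNB1 has 0.65 in wild type and 0.14 in the mutant, FOXO1 0.20 and 0.15, and the CDKN1B mutant libraries lie apart at 0.88 and 0.50.

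CDKN1B had 2 sites in the 3′ UTR, 2 in the 5′ UTR and 1 in an intron near a splice site. The 3′ UTR site at 12875000 to 12875187 was listed in all 6 libraries, with a log2 fold of 0.95 and 1.79 for endogenous QKI (1.37 ± 0.60, SD, n = 2), 2.22 and 2.90 for tagged wild type (2.56 ± 0.48) and 2.78 and 0.30 for the mutant (1.54 ± 1.75). The wild type values lay above the endogenous ones, and the mutant libraries fell on either side of them. Its −log10 p was 3.14 and 4.58 in wild type, past the threshold, against 1.07 and 1.32 for endogenous QKI and 1.29 and 0.0518 for the mutant. The mutant clusters lay in different parts of the site, so no CDKN1B region had a cluster in all 4 tagged libraries and none could be tested by limma.

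The other CDKN1B 3′ UTR site, at 12874271 to 12874322, had 0.58 and −1.17 for endogenous QKI and 1.61 and 0.31 for the mutant, and was unlisted in wild type. The 5′ UTR site at 12870490 to 12870543 lay below input in endogenous, at −1.74 and −1.02, and was unlisted in the 4 tagged libraries. Over the 5 sites the mean log2 fold was 0.44 and 0.58 in wild type and 0.88 and 0.50 in the mutant (exact two-sided permutation p = 0.667). The difference of −0.18 turned to 0.0074 without mutant library 1.

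The 3′ UTRs of the 3 genes are the places where QKI has been described to act on these mRNAs, and sites there can be set side by side as folds over each site's own input. The sites with the highest endogenous mean had wild type means of 3.07 in FOXO1, 2.56 in CDKN1B and 0.59 in CTNNB1. No 3′ UTR site of the 3 genes was enriched in any library, where 3.33% and 3.84% of all 3′ UTR clusters were enriched in endogenous. Each endogenous library held just 4 such clusters in FOXO1, 2 in CTNNB1 and 2 in CDKN1B. At those shares, so few clusters cannot show an absence of binding. For the tagged libraries the share of all 3′ UTR clusters was not computed. In CTNNB1 that site, at 41281197 to 41281266, had 0.03 and 0.37 for endogenous QKI, 0.50 and 0.69 for tagged wild type and 1.19 for mutant library 1 alone. The other CTNNB1 3′ UTR site, at 41281506 to 41281767, was chosen for description because its endogenous and wild type values differed, and that difference is given as a description only. It had −0.36 and −0.20 for endogenous QKI, 0.95 and 1.04 for tagged wild type and 2.61 for mutant library 1, with no cluster in mutant library 2. Its −log10 p was 4.21 and 5.72 in wild type and 3.20 in that mutant library. The mutant cluster with 2.61 lay at 41281745 to 41281792, past the end of both wild type clusters (41281512 to 41281725 and 41281516 to 41281727). Mutant library 1 also had a cluster on the wild type ones, at 41281512 to 41281598, with 1.93 and a −log10 p of 3.04. At both CTNNB1 sites the listed mutant values lay above the wild type ones, with the other mutant library unlisted.

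Tagged clusters that lay between the first and last endogenous cluster of a gene but touched none were counted apart. FOXO1 had 32 and 31 such clusters in wild type and 57 and 66 in the mutant, CTNNB1 16 and 24 against 20 and 19, and CDKN1B 1 and 3 against 3 and 2. None of them was enriched. The highest log2 fold among them was 3.28, in FOXO1 of mutant library 2, with a −log10 p of at most 2.03 in that library.

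The lead site of each gene is the one with the highest −log10 p summed over both endogenous libraries. It was compared with those of 13336 genes by the Euclidean distance between log2 folds in the 6 libraries. Unlisted tagged clusters were set to 0. The nearest to CTNNB1 were the lead sites of PCBP1-AS1 (distance 0.38), UBE2Z (0.48) and THAP10 (0.50). All 3 were picked by these same folds, so the order they share with it is no separate result. They had endogenous folds of 4.34 to 4.99, wild type folds of 1.58 to 2.40 and no mutant cluster. By the same selection FOXO1 was nearest to CNTN1 (0.073), EPAS1 (0.075) and GEMIN5 (0.11), each listed in endogenous alone, at 2.51 to 3.27. CDKN1B had no neighbour as close, with RNU1-85P at 0.98, GJA1 at 1.36 and HCG11 at 1.58. Its site was listed in all 6 libraries, while FOXO1 and its neighbours shared a set value of 0 in every tagged library. The distances of these genes therefore do not compare directly.

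The other genes of the 3 pathways were read from lists. Among 30 genes of the FOXO and PI3K-AKT pathway, 29 had an endogenous cluster, and 11 held an endogenous, 7 a wild type and 0 a mutant reproducible peak. Among 44 genes of the β-catenin pathway, 41 had a cluster, with 20, 13 and 0. Among 34 genes of p27 and the G1 to S transition, 32 had a cluster, with 12, 9 and 0. The shares with an endogenous peak, 37.9%, 48.8% and 37.5%, stand beside 20.5% of all gene names. Those with a wild type peak, 24.1%, 31.7% and 28.1%, stand beside 10.8%. A mutant peak was held by just 0.0958% of all gene names, so 0 in lists of this size tells little. Among members of the lists with at least 50 clusters the counts with an endogenous peak were 11 of 16, 16 of 20 and 8 of 9. They stand beside 72.7% of all genes of that size. For a wild type peak they were 7 of 16, 9 of 20 and 4 of 9, beside 41.0%. The median number of endogenous peaks per gene was 0 in each list, as over all genes.

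In the FOXO and PI3K-AKT list SGK3, an AKT-related kinase gene, held 7 endogenous peaks and 1 wild type peak, where FOXO1 held 1 and 0. Its leading site, in an intron near a splice site, had a log2 fold of 5.81 and 5.10 for endogenous QKI and 5.14 and 5.11 for tagged wild type, while the mutant was unlisted. IGF1R, which encodes the IGF1 receptor, held 6 and 1, and GSK3B, which encodes a kinase of both the AKT and β-catenin pathways, 4 and 1. Of the tested regions of the β-catenin list 0 of 21 passed limma's threshold, with a median difference of 0.28 beside −0.26 over all regions. Of the p27 list 1 of 17 passed, the E2F5 region, which was higher in wild type by 3.13 (SE 0.49, limma adjusted p = 0.0378). The median difference over the p27 list was −0.25, close to the −0.26 of all regions, of which 0.657% stood higher in wild type at that threshold.

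In the β-catenin list DVL3, which encodes a Dishevelled signal transducer, held 9 endogenous and 2 wild type peaks. TLE4, a Groucho co-repressor gene, held 7 and 1, and TCF7L2, which encodes a DNA-binding partner of β-catenin, 6 and 3. CTNNB1 with 5 and 2 came level in endogenous peaks with BTRC (5 and 1) and FBXW11 (5 and 3), which encode the F-box proteins that recognise β-catenin for degradation. The leading DVL3 site was in a 3′ UTR, with 5.89 and 5.72 in endogenous and 3.60 and 3.14 in wild type and no mutant cluster. In the p27 list E2F3, an S phase transcription factor gene, held 6 and 2 peaks. CKS1B, which encodes the cofactor by which p27 is marked for degradation, RBL1, a retinoblastoma family gene, and CDKN2A, which encodes another cell cycle inhibitor, held 4 and 1 each. CDKN1B itself held none.

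**Figure D5:**
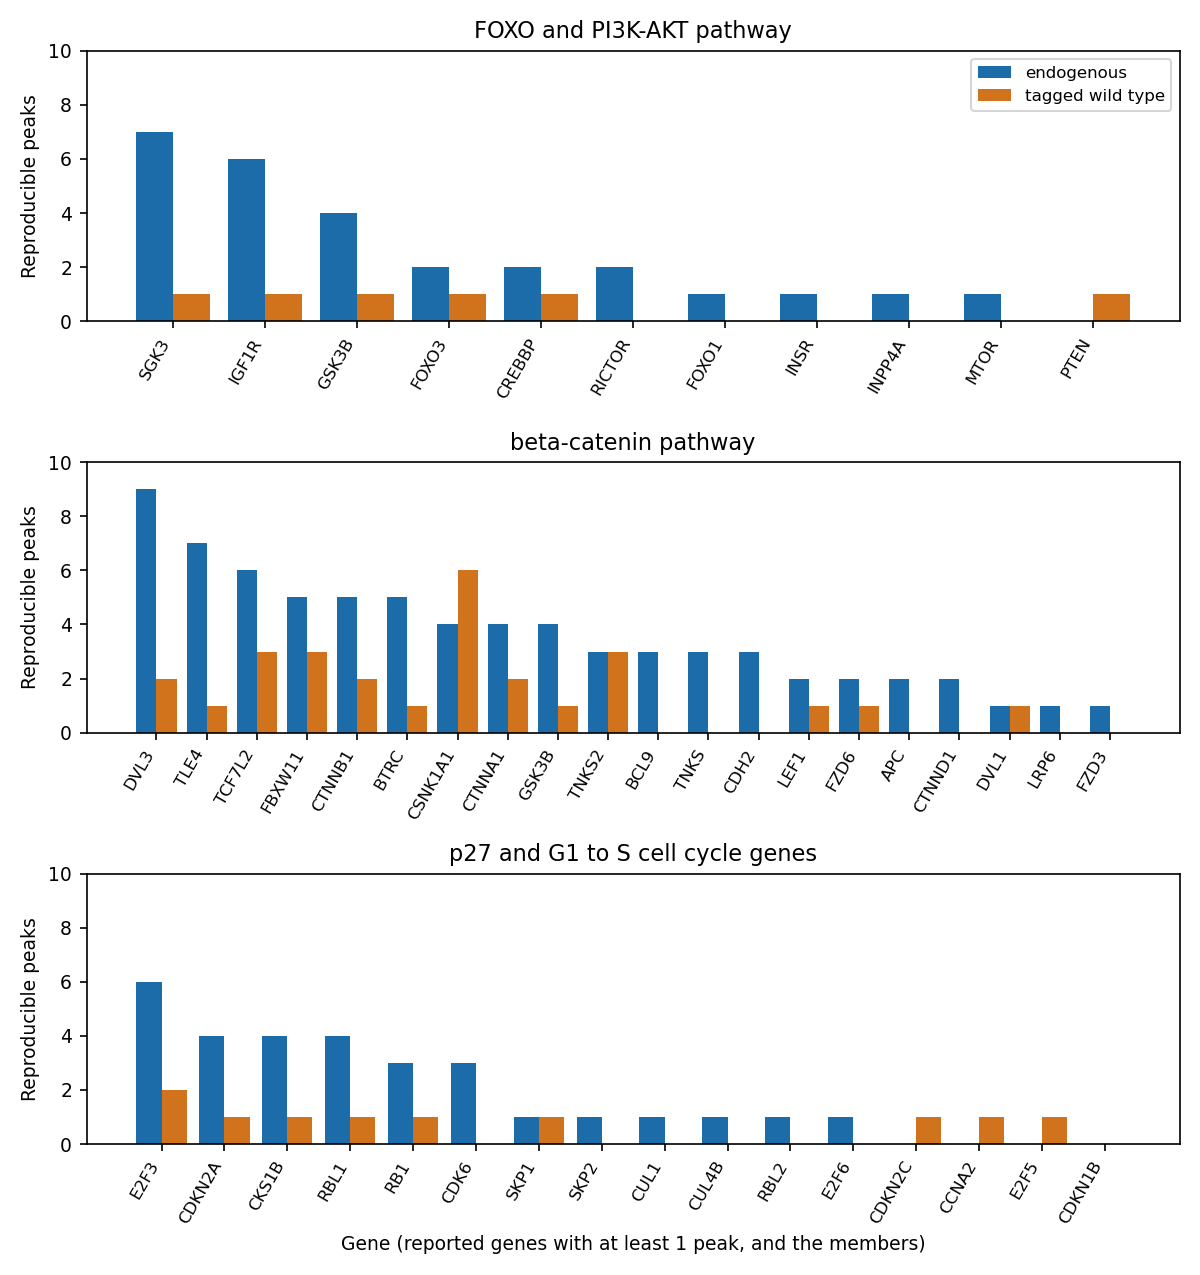
Bars give the number of reproducible peaks (vertical axis, from 0) of endogenous QKI and of tagged wild type QKI-5 for each reported gene with a peak and for the members (horizontal axis), with a panel for each pathway list. DVL3 stands at 9 and 2, CTNNB1 at 5 and 2, FOXO1 at 1 and 0, and CDKN1B at 0. No gene of the lists had a mutant peak, where 0.0958% of all gene names held one.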

How the data were processed

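The submitters' processing notes name STAR, SAMtools, cutadapt and UMI-tools, with hg19 as the genome build and no versions. The sources used here do not name a peak caller. The authors deposited, for each cluster, a log2 fold of immunoprecipitation over size-matched input and a −log10 p capped at 400. The deposited browser score of the tagged tracks was not used in a test. The endogenous files keep 155229 and 33333 clusters at or below input, and the tagged files 0. The deposited reproducible lists hold 1 set of peaks for each group of 2 libraries.

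Samples were grouped by title. Clusters were read with Python 3.11.15 and merged where they overlapped or adjoined on 1 strand. Where a library had several clusters on a site, that of the highest −log10 p stood for it. Tagged regions with a cluster in all 4 libraries were tested with limma 3.58.1 (lmFit, eBayes, Benjamini-Hochberg) in R 4.3.3, after tests on simulated data. Intervals are exact Clopper-Pearson at 95% and cover counting error only. Coordinates are 1-based.

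The members, lists and tests were chosen with earlier results of these data known. Sites named were reproducible peaks, sites with an enriched cluster, and the 3 highest endogenous means where a gene had fewer than 3 of these. In each list the genes with the most endogenous peaks were named, up to 4. BTRC and FBXW11, level with the fourth, and E2F5, which had a region past limma's threshold, were named after their values were seen, as were a few further member sites. Inputs had no file analysed here. A gene of the lists and its region are not reported here, though the counts over lists include them.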

Additional observations from a re-analysis of the deposited data

Results flagged for a closer look

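At the CTNNB1 3′ UTR site at 41281506 to 41281767 both endogenous libraries lay below input while both wild type libraries lay above it. Tagged libraries list only clusters above input, and the flag needed a listed cluster in both libraries of a tagged group. Wild type above input was therefore set by the choice. Mutant library 1 also lay above input there, at 2.61, and mutant library 2 listed no cluster. The wild type mean exceeded the endogenous mean by 1.28 on the log2 scale. The difference was not tested, and antibody and transfection cannot be told apart in it.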

How the results depend on the processing

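The counts moved with the thresholds. With the fold threshold at 2 on the log2 scale, the mean number of enriched clusters per library was 7.5 in endogenous, 6 in wild type and 1 in the mutant for CTNNB1, 1 in endogenous and 0.5 in wild type for FOXO1, and 1 in wild type for CDKN1B. At a log2 fold of at least 4 it was 1.5 in endogenous and 0 in wild type for CTNNB1 and 0 for FOXO1, and at a −log10 p of at least 5 it was 2.5 in endogenous for CTNNB1 and 0 for FOXO1. With 1 library left out, FOXO1 had 0 to 1 in endogenous and CTNNB1 4 to 5 in endogenous and 2 to 4 in wild type. The 1 endogenous CTNNB1 peak on a wild type peak fell to 0 when at least 50% of the shorter peak had to overlap, and to 0 with the fold threshold at 4.

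The mean difference between wild type and mutant in CTNNB1 was 2.52 over enriched endogenous sites, 1.98 over those past the −log10 p threshold of 3, and 0.46 with an overlap of at least 50% of the tagged cluster. That last alternative was chosen after seeing the data. In FOXO1 it was 0.17 over listed clusters only and 0 at its 1 strong endogenous site. In CDKN1B it reversed to 1.04 over listed clusters and to 0.013 under the overlap of at least 50%. With 1 library left out it lay between −0.36 and 0.0074 in CDKN1B, 0.022 and 0.073 in FOXO1, and 0.48 and 0.55 in CTNNB1.

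In limma 1 member region, the FOXO1 3′ UTR, passed with centring, with the −log10 p filter and with the spread of 6 libraries. In the other fits with 2 libraries in each group 0 did. The region met the filter through wild type library 1 alone, where it was high, so that pass is no separate support. Over all regions 37 passed, but 72 with centring, 74 with the filter, 84 with the shared spread and 0 with missing clusters set to 0, and 4 to 73 with 1 library left out. The CTNNB1 region from 41241258 reversed to 0.11 with centring, to 0.14 without wild type library 2 and to 0.70 without mutant library 2, and with 1 library left out it lay between −1.01 and 0.70. The cause was not tested.

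Titles number the libraries 1 and 2 in each group, but nothing says that a number marks a shared culture, and same-numbered deviations had a correlation of −0.038 over 5481 regions. With the replicate block 42 regions passed, 0 of them in the members, and the FOXO1 3′ UTR region had a limma adjusted p of 0.123. Depth is unknown, and with 2 libraries in each group no exact permutation test could go below 0.33.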
